A study of Mus musculus with 5 samples.

Results

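The 8 genes described here carry out the work of a cholinergic motor neuron rather than specify it: Chat, Slc18a3, Slc5a7, Slc10a4 and Ache, which handle acetylcholine, Prph, an intermediate filament gene, and Calca and Calcb, which encode peptides. They were taken by name, with every probe whose accession in the scanner files belongs to one of them, which gave 11 probes for 8 of the 19897 genes that had a matched probe. Slc5a7, Ache and Calca had 2 probes each and the others 1. Each of the 11 probes was read from 1 spot per array.

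Mouse embryonic stem cells (ES, with no RA named) and 4 later points of their differentiation towards spinal motor neurons were profiled, each on 1 one-colour Agilent array hybridised with Cy3-labelled RNA. The titles of all 5 samples carry WT (wild type). Day2 was embryoid bodies, the floating aggregates in which the cells differentiate, after 8 h of retinoic acid (RA). Day3 and Day4 were embryoid bodies after 1 day and 2 days of RA, and Day7 was the culture described as motor neurons after 5 days of RA. The protocol in the labels adds Shh to the RA from day 2 until day 5, the paper names a smoothened agonist in its place, and the tissue field of the Day7 sample still reads embryoid bodies. No sorting of cells is named, so each array is taken to hold a whole culture, and with 1 array per time point there is no spread between replicates, no test and no p-value.

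Motor neurons use acetylcholine at the synapse with muscle. Choline acetyltransferase (Chat) makes it from choline, the vesicular acetylcholine transporter (Slc18a3) loads it into synaptic vesicles, acetylcholinesterase (Ache) breaks it down in the cleft, and the high-affinity choline transporter (Slc5a7) takes the choline back into the terminal. Slc10a4 is a protein of synaptic vesicles in cholinergic and monoaminergic neurons. Peripherin (Prph) is a neuronal intermediate filament found mainly in neurons whose axons leave the central nervous system. Calca encodes calcitonin and, through alternative splicing, the alpha form of calcitonin gene-related peptide (CGRP), and Calcb encodes its beta form. CGRP is made by motor neurons and by many sensory neurons.

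Values below are log2 signals after quantile normalization, which gives all arrays the same distribution, and a difference of 1 is a 2-fold change. A change of 2-fold or more is called raised or lowered, a rule of size and not a test. Where a probe was not well above background (a flag of the scanner software), its own value was replaced by the lowest value of any detected probe on that array unless it already exceeded this, and a change against such a value is given as a lower bound ("at least"). That lowest value was 4.18 on the ES array, 2.60 at Day2, 5.22 at Day3, 4.05 at Day4 and 4.66 at Day7.

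Day2 and Day7 stood apart as arrays. On Day2, 86.7% of mouse probes were well above background, against 57.5% to 65.7% on the other 4 arrays, and so were 65.6% of the 96 ERCC probes, which target synthetic control sequences, against 4.17% to 9.38%. Day7 alone was on the second slide, so its slide and its time point cannot be told apart, and the median log2 signal of the E1A spike-in probes before normalization was 7.37 there against 15.73 to 16.37 on the other arrays. Of the 11 probes of the effector genes, 6 were well above background in ES cells, 10 at Day2, 5 at Day3, 6 at Day4 and 11 at Day7. The number above the 95th percentile of the ERCC probes of the same array was 4 in ES cells, 4 at Day2, 5 at Day3, 6 at Day4 and 11 at Day7.

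**Figure D1:**
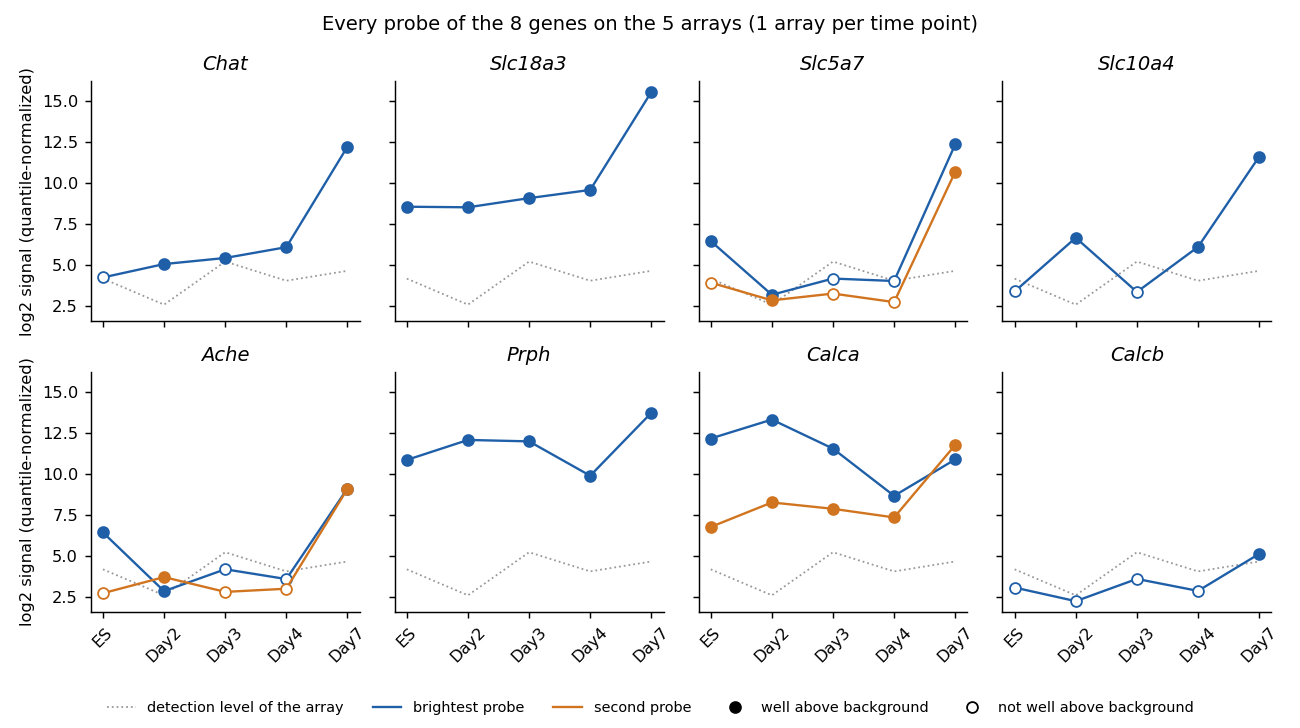
Quantile-normalized log2 signal (y axis) of every probe of the 8 genes on the 5 arrays (x axis), 1 array per time point. Filled points were well above background, open points were not, and the dotted line joins the lowest value well above background on each array; all 11 probes are filled on Day7, and the steepest part of most courses is between Day4 and Day7.

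All 8 genes were raised at least 2-fold from Day4 to Day7, when 18.1% of 16082 genes with a value were raised and 18.1% were lowered. The median log2 change was 5.27 over the 8 genes and -0.12 over all genes with a value. For 3 of the 8 (Slc5a7, Ache and Calcb) the change was a lower bound. These were not well above background on Day4, so they could not be called lowered. The median of the 8 lay between the bound of Ache (at least 5.05) and the 5.49 of Slc10a4. From ES cells to Day7, 6 of the 8 were raised and 1 was lowered, against 24.8% raised and 24.4% lowered of 15838 genes, with medians of 4.38 and -0.07. Of those 6 rises, 2 (Chat and Slc10a4) were lower bounds. In bulk RNA of a culture, more cells of a type and more RNA per cell cannot be told apart. With arrays aligned at their 75th percentile in place of quantile normalization, raised genes made up 44.4% of the genes passing 2-fold from Day4 to Day7 and 40.5% from ES cells to Day7, against 49.9% and 50.4% in the main setting. Without any normalization the first share was 94.0%, because the median of all genes then lay at 1.06, and the median of the 8 genes was 6.68.

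Chat, the enzyme that makes acetylcholine, had a log2 signal of 4.25 in ES cells, where it was not well above background, then 5.07 at Day2, 5.44 at Day3, 6.09 at Day4 and 12.21 at Day7. The scanner signals before normalization were 19.5, 101, 25.8, 36.3 and 6220 in the same order. The first 4 values were low and only the last was high. Chat was 69.4-fold higher on Day7 than on Day4, a log2 change of 6.12 with an error of 0.22 from the scanner's own estimate for the 2 spots, which covers the spot and not the culture. Against ES cells it was at least 249-fold higher. The rise placed Chat 89th among the genes with a value from Day4 to Day7 and 40th from ES cells to Day7, counted from the largest rise, the second of these places resting on a bound set by the detection level.

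Slc18a3, the vesicular transporter, was well above background on all 5 arrays, with 8.56 in ES cells, 8.52 at Day2, 9.08 at Day3, 9.58 at Day4 and 15.54 at Day7. It stayed within 2-fold at each of the first 3 steps and was 62.4-fold higher on Day7 than on Day4 (log2 change 5.96, scanner error 0.20). Over the whole course from ES cells it rose 127-fold. In the RefSeq annotation of GRCm38.p6 the Slc18a3 gene lies inside the Chat gene on the same strand, an arrangement known as the cholinergic locus, and the annotated starts are 1059 bases apart. The courses of these neighbours were close: the Euclidean distance between their 5 log2 values, each course first centred on its own mean, was 0.77, against 1.70 to 8.10 between Chat and the other 6 effector genes. Both genes have their own probe on the array, so this likeness is between separate measurements on the same 5 arrays. Among all genes compared, Rufy3 was nearer to Chat, at 0.57. With arrays aligned at their 75th percentile, Chat changed by at least 2.15 from ES cells to Day2 and by -1.24 to Day3. The changes of Slc18a3 were then 0.18 and 0.34.

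The promoter windows of Chat, Slc18a3, Slc5a7 and Slc10a4 are printed to show the DNA at the starts of genes that all rose from Day4 to Day7, although on Day4 Slc5a7 was below its ES level and the other 3 above theirs. In the main setting these 4 cholinergic genes rose most over Day4 by Day7, where the change of Ache is only a bound (at least 5.05). Without the filter on dim probes Ache had 5.51, just above the 5.49 of Slc10a4. Each holds 250 bases before and 50 after the annotated start (RefSeq, GRCm38.p6), read 5′ to 3′ on the strand of the gene. Capitals mark TAAT, the core of many homeodomain binding sites, and TGACG, one arm of the cAMP response element, on either strand, where they read ATTA and CGTCA. The windows are chr14:32465860-32466159 on the minus strand for Chat, chr14:32464801-32465100 on the minus strand for Slc18a3, chr17:54298985-54299284 on the minus strand for Slc5a7 and chr5:73006654-73006953 on the plus strand for Slc10a4.
Chat: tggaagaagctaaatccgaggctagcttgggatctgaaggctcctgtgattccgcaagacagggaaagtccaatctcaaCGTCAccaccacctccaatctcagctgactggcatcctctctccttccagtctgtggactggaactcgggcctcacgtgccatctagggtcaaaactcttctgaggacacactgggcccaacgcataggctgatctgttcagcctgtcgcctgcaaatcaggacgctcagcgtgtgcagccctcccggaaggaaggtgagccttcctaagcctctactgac
Slc18a3: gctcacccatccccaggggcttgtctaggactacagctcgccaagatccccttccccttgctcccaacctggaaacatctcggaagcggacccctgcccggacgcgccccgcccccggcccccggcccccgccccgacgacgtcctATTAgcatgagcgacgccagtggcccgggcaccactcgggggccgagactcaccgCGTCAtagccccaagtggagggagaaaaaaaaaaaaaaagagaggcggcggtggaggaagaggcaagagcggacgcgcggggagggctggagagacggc
Slc5a7: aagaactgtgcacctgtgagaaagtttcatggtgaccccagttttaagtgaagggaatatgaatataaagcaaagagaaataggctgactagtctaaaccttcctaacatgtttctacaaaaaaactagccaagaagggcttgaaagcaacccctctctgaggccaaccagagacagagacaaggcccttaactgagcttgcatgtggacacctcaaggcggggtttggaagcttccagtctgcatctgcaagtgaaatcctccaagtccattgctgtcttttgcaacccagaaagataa
Slc10a4: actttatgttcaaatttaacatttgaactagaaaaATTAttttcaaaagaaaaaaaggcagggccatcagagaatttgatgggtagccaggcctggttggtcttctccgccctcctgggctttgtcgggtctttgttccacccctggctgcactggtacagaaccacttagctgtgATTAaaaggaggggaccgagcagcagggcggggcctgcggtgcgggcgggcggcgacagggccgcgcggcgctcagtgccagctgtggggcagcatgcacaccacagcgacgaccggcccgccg
Over the 7 effector genes with a window in the RefSeq table, 3 held TAAT (Slc18a3, Slc10a4 and Calca) and 3 held TGACG (Chat, Slc18a3 and Calca). Of 32851 mouse promoter windows of the same length, 58.0% held TAAT and 20.8% held TGACG. Also counted were the E-box CAGCTG (3 of the 7, 16.3% of all windows), the GC box GGGCGG (4, 35.7%) and the TATA box TATAAA (2, 13.6%). The Slc5a7 window held neither TAAT nor TGACG. These matches describe letters in a window only.

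Slc5a7, the choline transporter, was read by 2 probes. The brighter had 6.47 in ES cells, 3.20 at Day2, 4.18 at Day3, 4.04 at Day4 and 12.36 at Day7, and the other 3.94, 2.86, 3.27, 2.75 and 10.69. The brighter probe was not well above background on Day3 and Day4, and the other was so only on Day2 and Day7. Both rose to Day7, by at least 316-fold and at least 99.4-fold over Day4. This placed Slc5a7 11th of 16082 genes, although such a place rests on a bound set by the detection level. The rise over ES cells was 59.4-fold for the brighter probe and at least 91.1-fold for the other. The brighter probe was 9.63-fold lower on Day2 than in ES cells, a log2 change of -3.27 that shrank to -1.40 with arrays aligned at their 75th percentile and to -1.0 with normexp background correction, and no fold could be given for the other. Its scanner signals there were 91.2 in ES cells and 40.4 on Day2, below the 95th percentile of the ERCC probes on both arrays (98.7 and 297), and with that percentile as the lower limit of detection, an alternative chosen after the data were seen, the fall had no value.

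Slc10a4 was dim (not well above background) in ES cells at 3.40 and on Day3 at 3.37, and had 6.67 on Day2, 6.11 on Day4 and 11.60 on Day7. It was 45-fold higher on Day7 than on Day4, a log2 change of 5.49 with a scanner error of 0.23, and at least 172-fold higher than in ES cells. It was the only cholinergic gene of the 8 called raised from ES cells to Day2 in the main setting, by at least 5.62-fold, and with normexp its change there was 0.78, short of 2-fold. Chat passed 2-fold at the same step with arrays aligned at their 75th percentile (at least 2.15 on the log2 scale) or without normalization (at least 2.38), and then fell from Day2 to Day3, by 1.24 and 1.97, where the main setting had a change of 0.37. For Slc10a4 the scanner signal of 212 on Day2 lay below the ERCC percentile of that array. The part of the Day2 array in this early rise was not tested.

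Ache, which breaks acetylcholine down, was also read by 2 probes, which met on Day7 at 9.10 and 9.07. Before that the brighter had 6.42 in ES cells, 2.85 at Day2, 4.18 at Day3 and 3.59 on Day4, and the other 2.72, 3.71, 2.81 and 3.0. On Day3 and Day4 neither probe was well above background, and in ES cells only the brighter one was. From Day4 to Day7 the probes rose by at least 33.0-fold and at least 32.5-fold. Against ES cells the brighter rose 6.38-fold and the other at least 29.8-fold, so the size of that rise depends on the probe. The brighter probe was 11.9-fold lower on Day2 than in ES cells, with scanner signals of 88.7 and 26.4, both again below the ERCC percentile of their arrays. On the log2 scale this was -3.57, against -1.98 with arrays aligned at their 75th percentile and -1.01 with normexp. The other probe went the opposite way in scanner signal, from 7.78 to 55.2, and was raised by at least 1.34 under the 75th-percentile shift, with no fold in the main setting.

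**Figure D2:**
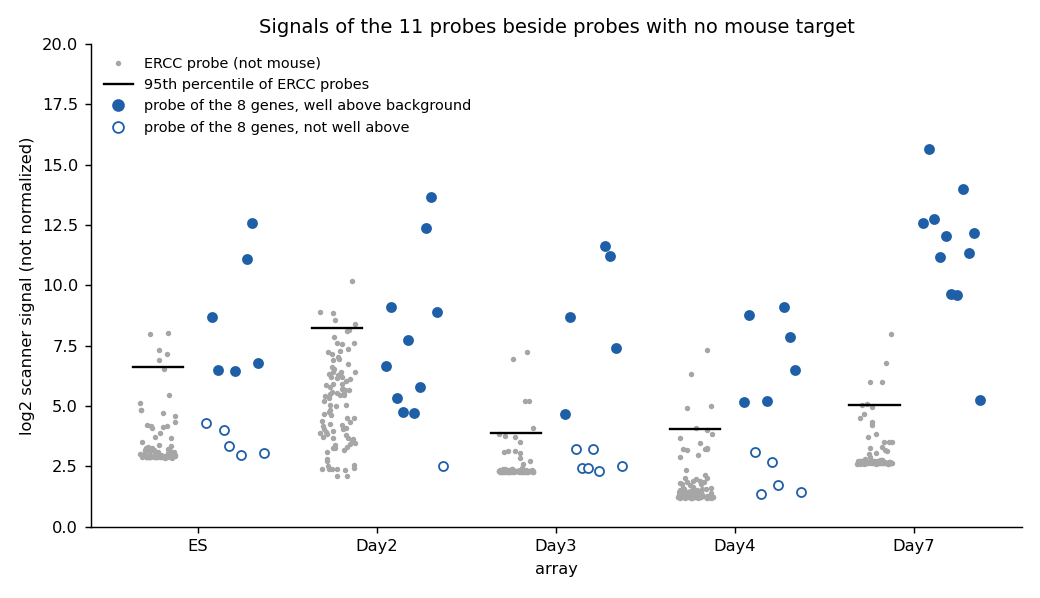
Log2 scanner signal before normalization (y axis) on each array (x axis) for the 96 ERCC probes (grey, with their 95th percentile as a bar) and the 11 probes of the effector genes (blue, from left to right in the order Chat, Slc18a3, Slc5a7, Slc10a4, Ache, Prph, Calca, Calcb). The ERCC probes are highest on Day2, where 4 of the 11 probes lie above their 95th percentile, and on Day7 all 11 do.

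Before Day4 the calls went in both directions. From ES cells to Day2, 3 of the 8 genes were raised (Slc10a4, Prph and Calca), where 10.7% of 18316 genes were, and 2 were lowered (Slc5a7 and Ache), where 11.3% were. These shares of all genes turn on the scaling of the Day2 array: aligned at the 75th percentile they were 20.9% and 7.01%, and the brighter Calca probe then changed by 0.89, short of 2-fold. From Day2 to Day3 no effector gene was raised, where 13.0% of genes were, and 2 were lowered (Slc10a4 by at least 2.73-fold, and Calca), where 7.76% were. With the 75th-percentile alignment these shares became 5.82% and 17.0%, and 3 effector genes were lowered. From Day3 to Day4 again none was called raised, where 3.62% of genes were, 2 were lowered (Prph and Calca), where 4.87% were, and 3 had no value. The change of Slc10a4 at this step was a bound, at least 0.89 on the log2 scale, and it passed 2-fold with the 75th-percentile alignment (at least 1.21) and without the filter on dim probes (2.74). With Day2 passed over, from ES cells to Day4, 3 were raised (Chat at least 3.59-fold, Slc10a4 at least 3.82-fold and Slc18a3 2.03-fold), where 17.0% of genes were, and 3 were lowered (Slc5a7 at least 5.33-fold, Ache at least 5.18-fold and Calca 11.2-fold), where 14.4% were. None of the 3 rises reached 2-fold with normexp or without normalization, none reached 4-fold in the main setting, and with the ERCC percentile as lower limit only that of Slc18a3 was called. Of the falls, that of Ache was -0.86 with normexp, short of 2-fold, those of Slc5a7 and Ache had no value with the ERCC percentile as lower limit, and the second Calca probe changed by 0.58. In this interval Prph had a log2 change of -0.96, within 2-fold, but -1.07 with the 75th-percentile alignment and -2.03 without normalization, and Calcb had no value.

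Peripherin was well above background on every array. Prph had 10.84 in ES cells, 12.05 at Day2, 11.97 at Day3, 9.88 at Day4 and 13.71 at Day7. Its course thus had a first rise of 2.32-fold to Day2, a fall of 4.26-fold from Day3 to Day4 and a rise of 14.2-fold from Day4 to Day7 (log2 change 3.83, scanner error 0.20). Against ES cells it was 7.31-fold higher on Day7. All of its scanner signals lay above every ERCC probe of the same array, from 543 on Day4 to 16214 on Day7. The 5 genes whose centred courses were nearest to that of Prph among 18635 genes were Arfgef3, St8sia3, Otop3, Crhbp and Slitrk4, at distances of 0.68 to 0.82. Values not well above background entered these courses at the detection level, which was the case for Crhbp on Day3 and Day4 and for Otop3 on Day4. The other 3 were also lower on Day4 than on Day3 and highest on Day7.

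Calca gave different answers from its 2 probes. The probe annotated to transcript NM_001033954 had 12.14 in ES cells, 13.29 at Day2, 11.52 at Day3, 8.65 at Day4 and 10.87 at Day7. The probe annotated to transcript NM_007587 had 6.76, 8.25, 7.86, 7.34 and 11.75. Both probes were well above background on all 5 arrays, with scanner errors of 10% to 11.9%. Between ES cells and Day7 the first fell by 1.27 on the log2 scale, 2.42-fold, and the second rose 31.8-fold. Both rose from Day4 to Day7, by 4.65-fold and 21.3-fold, and both rose from ES cells to Day2, by 2.22-fold and 2.81-fold. Between Day2 and Day4 they parted: the first fell 3.41-fold to Day3 and a further 7.33-fold to Day4, while the second stayed within 2-fold at each step. Of 4203 genes with 2 or more probes with a value, 102 (2.43%) had probes past 2-fold in opposite directions from ES cells to Day7. Both transcripts belong to Calca in the RefSeq table, and which of its products each probe reads was not settled from the sources used here.

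The courses of the Calca probes were near those of different genes. Nearest to the first were Pllp, Pdzk1, Fam43b, Sis and Lefty2, at distances of 1.1 to 1.39, with Sis at the detection level on Day3, Day4 and Day7. Nearest to the second, a comparison added after its values were seen, were Slc12a5, Trib2, Pcdhb18, Nrxn2 and Sstr1, at 0.48 to 0.60, with Pcdhb18 at the detection level in ES cells and on Day3, and Sstr1 in ES cells and on Day3 and Day4. Slc12a5 is the neuronal potassium-chloride cotransporter and Nrxn2 a presynaptic adhesion protein. For Chat the nearest were Rufy3, Slc18a3, Stmn3, Apba1 and Chgb, at 0.57 to 1.0. Likeness over 5 arrays is a description only. The promoter of Calca, chr7:114636308-114636607 on the minus strand of GRCm38.p6, is printed with the same marks because it held both motifs.
Calca: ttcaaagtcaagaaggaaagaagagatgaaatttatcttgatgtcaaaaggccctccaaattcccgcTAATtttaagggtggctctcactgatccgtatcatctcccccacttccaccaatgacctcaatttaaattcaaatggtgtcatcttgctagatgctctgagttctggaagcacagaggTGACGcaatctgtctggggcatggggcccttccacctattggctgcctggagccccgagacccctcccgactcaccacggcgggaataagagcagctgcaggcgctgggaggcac

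Calcb, which lies on the same chromosome as Calca with 2 pseudogenes between them in the RefSeq annotation, was the weakest call. It had 3.07 in ES cells, 2.24 at Day2, 3.59 at Day3 and 2.87 on Day4, none of them well above background, and 5.12 on Day7. The rise from Day4 to Day7 was at least 2.09-fold, just past the rule, and that from ES cells at least 1.92-fold, short of it. The scanner signal of 38.2 on Day7 stood beside an ERCC percentile of 32.9. With arrays aligned at their 75th percentile the Day4 to Day7 change was 0.84, with normexp background correction 0.43 and with the ERCC percentile as lower limit 0.12, so all 3 left it short of 2-fold. The call for Calcb thus depends on the processing.

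**Figure D3:**
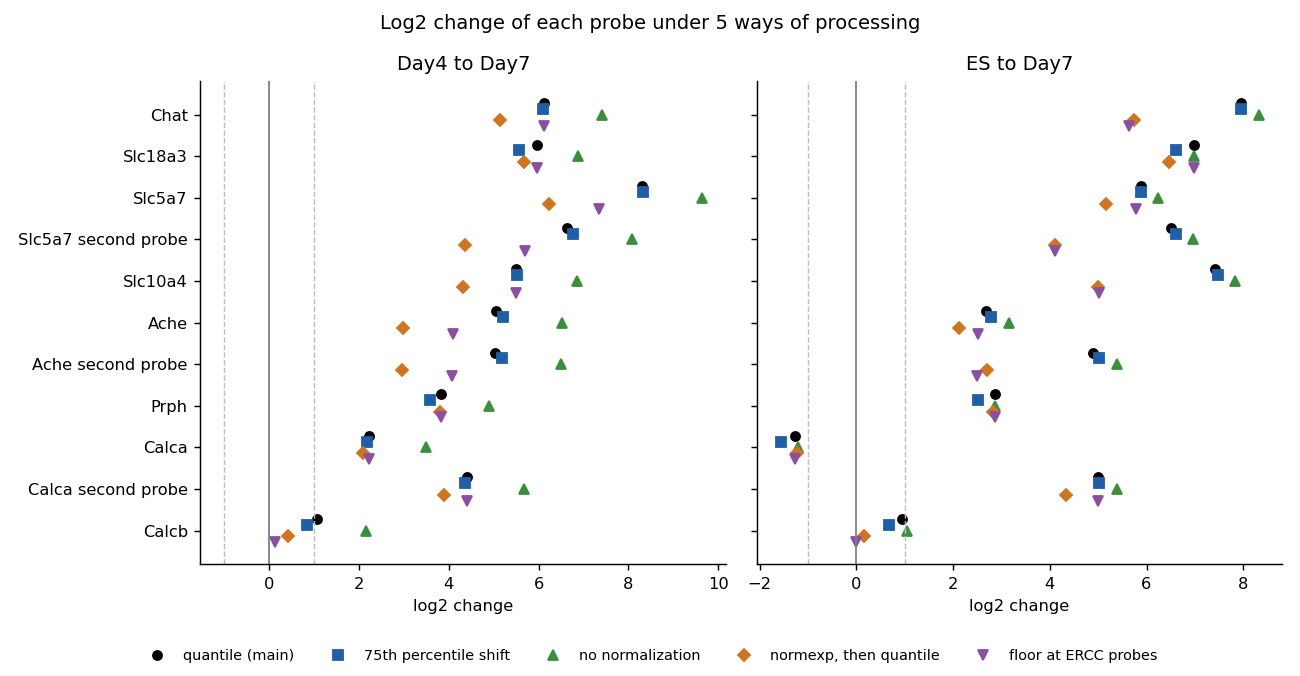
Log2 change (x axis) of each of the 11 probes (y axis) from Day4 to Day7 and from ES to Day7 under 5 ways of processing, with dashed lines at 2-fold. From Day4 to Day7 every probe except that of Calcb lies past 2-fold under all 5, and from ES to Day7 the brighter Calca probe lies below 0 under all 5.

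For the other 7 genes the direction from Day4 to Day7 was the same in every alternative that gave a value, and the size was not. Normexp background correction gave the lowest rise for most probes, with log2 changes of 6.23 for Slc5a7, 5.13 for Chat, 5.67 for Slc18a3, 4.31 for Slc10a4, 2.98 for Ache, 3.81 for Prph and 2.09 for Calca. Without normalization they were 9.65, 7.42, 6.87, 6.85, 6.52, 4.90 and 3.50, of which 1.06 is the shift of the median gene. With dim probes left out altogether, so that a change needed a detected signal on either side of it, 5 of the 8 genes had a value (Chat, Slc18a3, Slc10a4, Prph and Calca) and all 5 were raised. In that setting 16.3% of 14518 genes with a value were raised and 17.9% were lowered. The rises over ES cells ranged from 5.63 to 8.35 for Chat and from 4.99 to 8.20 for Slc10a4, both dim in ES cells, against 6.47 to 7.01 for Slc18a3. The change of Calca over ES cells ranged from -1.57 to 1.86, the last with its probes averaged.

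Other genes of acetylcholine and choline handling moved both ways. Of 14 genes, 3 were raised and 4 lowered from Day4 to Day7 (18.1% each over all genes with a value), with a median log2 change of -0.15, and 4 were raised and 4 lowered from ES cells to Day7 (24.8% and 24.4%), with a median of -0.09. Raised in both intervals were Slc44a5, a choline transporter-like protein, 6.65 from Day4 to Day7 and at least 7.78 from ES cells, and Prima1, the membrane anchor of brain acetylcholinesterase, 5.04 and 4.79. Prima1 had 7.35, 6.83, 7.30, 7.11 and 12.14 on the 5 arrays in order. The choline kinase Chkb and Pcyt1a, an enzyme of phosphatidylcholine synthesis, were raised from ES cells only, by 1.0 and 1.31. Pcyt1b, which encodes another form of that enzyme, rose by 2.70 from Day4 but stood at 8.98 on Day7 against 9.01 in ES cells. Slc44a3, Slc44a4, Slc44a1 and the choline kinase Chka fell in both intervals, by 1.28 to at least 2.26 from Day4 to Day7. Butyrylcholinesterase (Bche) and the collagen tail Colq, which anchors acetylcholinesterase at the neuromuscular junction, were within 2-fold in both intervals. Between these points Colq had 9.74 on Day2, against 5.76 in ES cells and 5.91 on Day3.

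Acetylcholine acts on nicotinic and muscarinic receptors. Of 16 nicotinic subunit genes, 5 had no value from Day4 to Day7, and of the other 11, 3 were raised, 1 was lowered and 7 stayed within 2-fold, where 18.1% of genes with a value were raised and as many lowered, with a median of -0.01. Against ES cells, 4 had no value, and 5 were raised and 5 lowered at Day7, where 24.8% and 24.4% of all genes with a value were, with a median of -0.68. The 3 raised from Day4 were subunits of neuronal receptors. Chrna4 had 5.51, 6.56, 9.68, 9.50 and 12.52 on the 5 arrays and rose by 3.02 over Day4 and 7.01 over ES cells. Chrnb2 rose by 4.39 and at least 6.56, and Chrna3 by 2.27 and at least 3.86. Chrnb1, the beta subunit of the muscle receptor, fell by 3.19 from Day4. Chrnd, Chrng and Chrna1, also muscle subunits, were not well above background on Day7. Of the 5 muscarinic receptor genes, Chrm2 rose by at least 2.71 from Day4 to Day7, Chrm4 fell by 1.02, Chrm3 changed by 0.70, and 2 had no value. Over ES cells, Chrm2 and Chrm3 rose by at least 2.58 and at least 1.09.

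Vesicular transporters of other transmitters also rose between Day4 and Day7, 4 of 6 against 18.1% of all genes with a value, with a median of 2.08. Slc17a6, which loads glutamate, rose by at least 6.37, Slc18a2, which loads monoamines, by 4.03, Slc32a1, which loads GABA and glycine, by 2.59, and Slc17a8, a further glutamate transporter, by 1.57. Against ES cells, 3 of the 6 were raised, where 24.8% of all genes were, and Slc32a1 was not among them, with 8.79 in ES cells and 9.22 on Day7, and the median change was 0.90.

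Among intermediate filament genes besides Prph, 5 of 8 were raised and 1 lowered from Day4 to Day7 (18.1% each over all genes), with a median of 2.20. From ES cells to Day7, 5 were raised, 1 was lowered and 1 had no value (24.8% raised and 24.4% lowered over all genes), with a median of 3.35. The neurofilament genes Nefm and Nefl rose by 7.59 and 7.0 and alpha-internexin (Ina) by 5.79. Nefh, the heavy neurofilament subunit, rose by 2.90 but stood 0.74 below its ES level on Day7. Like Prph, Nefl, Nefh and Ina were lower on Day4 than in ES cells, with 10.95 against 12.54 for Nefl, 9.40 against 13.03 for Nefh and 11.31 against 13.35 for Ina. Desmin (Des), a muscle filament, fell by at least 3.60.

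Of 9 other genes of the calcitonin family and its receptors, Iapp and Calcrl had no value in either interval. None of the other 7 was raised, where 18.1% of all genes were from Day4 and 24.8% from ES cells. From Day4 to Day7, 2 were lowered (Adm and Adm2, which encode adrenomedullins), near the 18.1% of all genes, and from ES cells to Day7, 5 were, against 24.4%, with medians of -0.29 and -1.20. The calcitonin receptor Calcr fell by 2.59 from ES cells, and Ramp3, a subunit that sets receptor specificity, by 1.20. Ramp1, the subunit that forms the CGRP receptor with Calcrl, fell by 1.12 on its brightest probe and rose by 1.38 on another. Calcrl was well above background only on Day2.

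**Figure D4:**
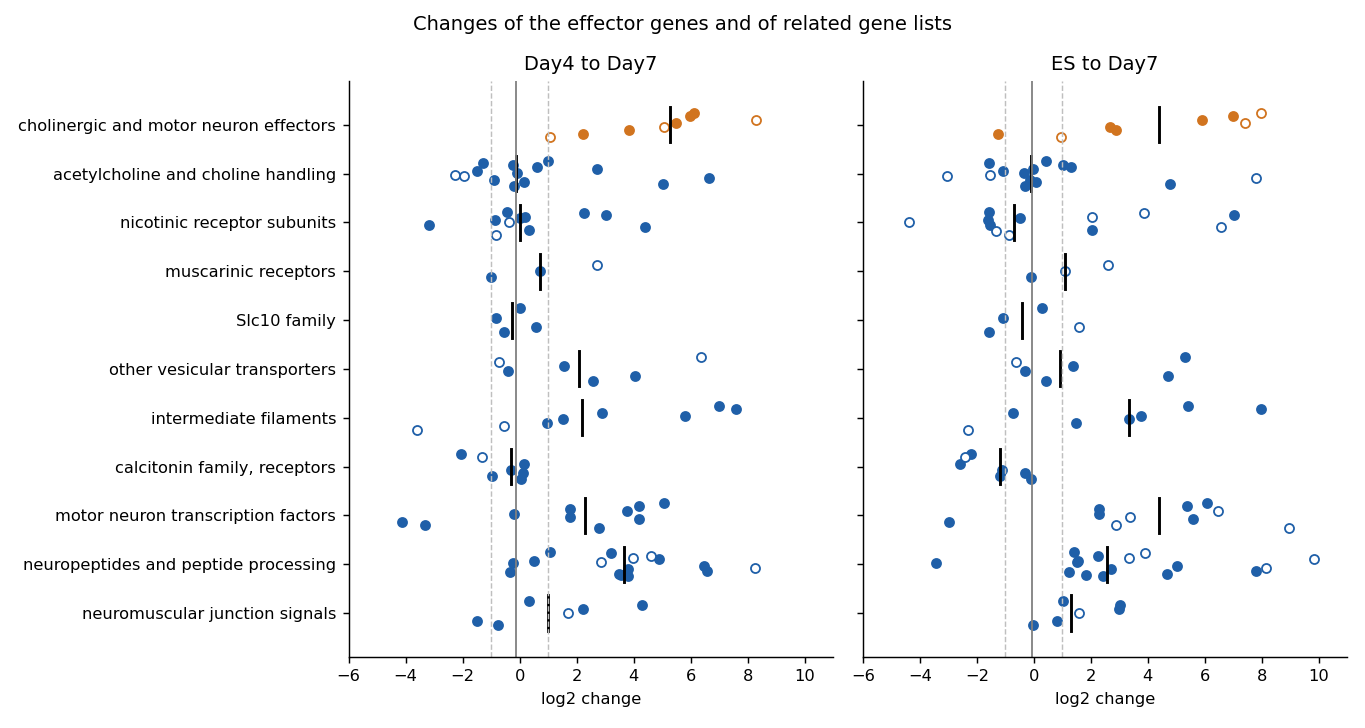
Log2 change (x axis) from Day4 to Day7 and from ES to Day7 for the genes of 11 lists (y axis), 1 point per gene by its brightest probe. Open points are lower bounds, black bars are list medians, the grey line is the median of all genes with a value and dashed lines mark 2-fold; the 8 effector genes (orange) all lie at or past 2-fold from Day4 to Day7, with a median of 5.27.

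Most transcription factors of motor neurons rose as well. Mnx1 had no matched probe, and of the other 10, 9 were raised and 1 lowered from ES cells to Day7, where 24.8% and 24.4% of all genes were, and 7 raised and 2 lowered from Day4 to Day7, where 18.1% each were, with medians of 4.38 and 2.28. Isl1 had 7.18, 5.94, 5.34, 8.19 and 13.25 on the 5 arrays, and Lhx4 2.05, 3.82, 3.33, 6.89 and 10.65, both higher on Day4 than on Day3. Olig2 and Neurog2, factors of motor neuron progenitors, were highest on Day4 (11.47 and 10.37) and fell by 4.12 and 3.31 to Day7, while the effector genes rose. Of 6 neural progenitor markers, 1 was raised from Day4 to Day7 (Nkx6-1, by 1.58) and 2 were lowered (Olig2, and Pax6 by 5.11). The other 3 (Sox1, Nes and Hes5) stayed within 2-fold, where 18.1% of all genes were raised and 18.1% lowered.

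Markers of the cell types a culture could hold were read beside these results. The motor neuron markers other than Chat and Slc18a3 (Isl1, Isl2, Lhx3 and Lhx4) all rose from Day4 to Day7, by 1.77 to 5.06, and 7 of 8 pan-neuronal markers rose by 4.18 to 7.58, with Snap25 at 0.57. Of 6 pluripotency markers, 5 were lowered from ES cells to Day7 and Nanog, at 9.20 and 8.80, was not. Floor plate markers rose too, 4 of 4 in both intervals, with the log2 of their summed signal at 8.19, 9.81, 10.45, 11.59 and 15.64 on the 5 arrays. Of 7 markers of neural crest and autonomic neurons, 5 were raised and 1 was lowered in each interval (18.1% each over all genes from Day4, 24.8% and 24.4% from ES cells). Th, Dbh and Phox2a were raised in both, Foxd3 rose by 1.37 from Day4 but fell by 4.29 from ES cells, Hand2 fell by 2.57 from Day4 but rose by at least 1.29 from ES cells, and Sox10 changed by 0.24 and 0.07. Th had 10.36 in ES cells and 12.40 on Day7, and Dbh was well above background only on Day2 (7.39) and Day7 (8.55). Of 5 sensory neuron markers with a probe, none was raised from ES cells to Day7, Runx1 rose by 1.99 from Day4, and Scn10a and Trpv1, which define pain-sensing neurons, were not well above background on Day7; the summed signal lay between 9.54 and 10.11 on all 5 arrays. The skeletal muscle markers Myod1, Myog, Myf5 and Ckm were not well above background on Day7 either, whereas Acta1, skeletal alpha-actin, was so on all 5 arrays, with 7.65, 8.61, 11.63, 12.42 and 7.76, and fell by 4.65 from Day4 to Day7. Slc5a7, Slc10a4, Prph, Calca and Calcb are known in several of the neuron types listed, and the part of cells other than motor neurons in their rise was not tested.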

How the data were processed

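The authors deposited the scanner output of 5 arrays (Agilent Feature Extraction 10.5.1 per the labels), whose intensity values were background-subtracted and detrended within each array but not brought to a common scale. A log2 table of the same arrays was deposited by the authors as well, and equalled log2 of that signal minus the 75th percentile of the array within 0.01 for at least 99.99% of probes. A figure legend of the paper names Quantile analysis, so here the log2 intensity, without control spots and outlier spots, was averaged per probe and quantile-normalized (limma 3.58.1 in R 4.3.3), with later steps in Python 3.11.15, numpy 2.4.6, pandas 2.3.3 and matplotlib 3.10.9. Of 55681 mouse probes, 26300 were matched by accession to 19897 symbols of the RefSeq table for GRCm38.p6. For gene counts and lists, the brightest probe on average stood for its gene. A gene undetected on both arrays of a step was left without a value, and one whose detected side lay under the detection level of the other array was counted as a change of 0. The calculation of changes was tested on simulated data in which only bright probes were changed. Normalization, the choice of probe, the matching to genes and changes at the detection level were not tested in this way. The 8 genes, the gene lists and the alternatives were chosen with earlier results of these data known. Genes named from a list passed 2-fold from ES to Day7 or from Day4 to Day7, or were named with their values as examples that did not. Some genes of the lists are not reported here by name.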

Additional observations from a re-analysis of the deposited data

Results flagged for a closer look

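On Day2, 65.6% of the 96 ERCC probes, which measure no transcript of the cells, were well above background, against 7.29% in ES cells. Their median signal was 38.5 on Day2 and 7.75 in ES cells. The values of Chat, Slc5a7, Slc10a4 and Ache on Day2 lie in this range of signal, and those of Slc18a3, Prph and Calca lie above the 95th percentile of the ERCC probes.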

How the results depend on the processing

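No paired analysis was possible because there was a single array for every time point, and for the same reason no replicate could be left out and slide could not be fitted as a block. The count of 8 effector genes raised from Day4 to Day7 was 7 or 8 in the alternatives except when dim probes were left out. There it was 5 of 5 with a value, beside 16.3% raised of all genes with a value. The count from ES cells to Day7 lay between 4 and 7. From ES cells to Day2, 1 of the 8 passed a 4-fold threshold in place of 3. From Day2 to Day3, the count of 0 became 1 with the scanner's weaker detection flag and 2 without a filter on dim probes. From Day3 to Day4, the count of 0 became 1 under the shift to the 75th percentile, in the deposited table, with the weaker flag and without the filter, and 2 at a threshold of 1.5-fold. Over all genes, 2911 were raised from Day4 to Day7, 8384 without normalization and 1409 at 4-fold, and 3929 were raised from ES cells to Day7, 2043 at 4-fold. The change of Calca from ES cells to Day7 turned from -1.27 to 1.86 when all probes of a gene were averaged, because its probes moved in opposite directions. The number of arrays limits the precision of all values, and signals of the dim probes before Day7 are set by the detection level.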

Other observations

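Genes for neuropeptides and their processing, none of them among the effector genes, were mostly raised. Of 18, 13 were raised, none was lowered and 2 had no value from Day4 to Day7, where 18.1% of all genes were raised, with a median log2 change of 3.67. From ES cells to Day7, 15 were raised, 1 was lowered and 2 had no value, where 24.8% were raised, with a median of 2.56. Somatostatin (Sst) had 3.63, 3.61, 7.14, 9.13 and 14.01 on the 5 arrays in order, so it rose over more steps than Calca or Calcb did. Secretogranin (Scg2) was not well above background on Day4 and rose by at least 8.27 to Day7, chromogranin B (Chgb) by 6.57, Cartpt by 6.48 and Cpe, which trims peptide precursors, by 3.48. Penk, which encodes enkephalins, fell by 3.45 from ES cells to Day7. Vip was well above background only on Day2 and Pdyn on no array.

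Of 7 genes for signals at the neuromuscular junction, 3 were raised, 1 was lowered and 1 (Musk) had no value from Day4 to Day7, where 18.1% of all genes were raised and 18.1% lowered. The neuregulin genes Nrg1 and Nrg2, which act on muscle receptors, rose by 4.29 and 2.22, and Dok7 by at least 1.69. Lrp4, a receptor for agrin, fell by 1.5. Agrin itself (Agrn) had 14.62 in ES cells and 15.63 on Day7 and changed by 0.31 over the last step. Of the 6 other genes of the Slc10 family, 4 had a value from Day4 to Day7, when Slc10a4 rose by 5.49. Slc10a3, Slc10a6 and Slc10a7 changed by -0.83, 0.57 and -0.56, within 2-fold, and Slc10a1 was near the top of the normalized range on both arrays, at 18.71. That was the brighter probe of Slc10a1, and of its 2 probes only 1 had a value from ES cells to Day7.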
